A study of Mus musculus with 30 samples.

Results

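The 36 genes described here encode 26 integrin chains and 10 laminin chains of the mouse. They were taken from a fixed list of symbols, each of which matched 1 identifier among the 53431 rows of the deposited table. The list was chosen with earlier results of these data known. Shares of all genes are therefore given beside its counts for scale and not as a test. Of the 36 genes, 33 passed the filter on low counts in at least 1 comparison, and Itgb6, Itgad and Lama1 passed in none.

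Integrins are receptors made of an alpha and a beta chain that span the plasma membrane. The alpha chain sets most of the choice of ligand, and the beta chain connects the receptor to the actin or keratin skeleton through talin, kindlin or plectin. Laminins are large heterotrimers of an alpha, a beta and a gamma chain that form the sheet of the basement membrane, and epithelial cells hold on to them mainly through integrins alpha 3 beta 1, alpha 6 beta 1 and alpha 6 beta 4. In tumors the same gene families are also used by leukocytes, endothelium, platelets and fibroblasts, each with its own set of chains.

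CT-26 (obtained from ATCC) and Colon 26 (purchased from RIKEN and from CoBioer) are colon carcinoma lines of BALB/c mice. RNA was sequenced from 3 cultures of each line and from whole subcutaneous tumors in female BALB/c mice, taken at nominal sizes of 100, 400 and 800 mm3 with 4 tumors per model and size. The treatment text of the labels describes dosing with checkpoint antibodies, but no label assigns an antibody to a sample, so the tumors were taken as untreated baseline tumors, which could not be checked. Whole tumors hold carcinoma and host cells together, and in such bulk RNA fewer cells of a type and less RNA per cell cannot be told apart. The libraries of a group are named a to d, letters that carry no pairing.

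The 30 libraries held 21384730 to 39722586 estimated counts. The Colon 26 cultures (36042940 to 39722586) were deeper than the CT-26 cultures (21384730 to 27856380). The labels name no batch, but the library numbers of the CT-26 cultures, the Colon 26 cultures and the tumors lay in separate ranges. A batch, if there was one, could not be told apart from model in culture or from culture against tumor. Ptprc, the pan-leukocyte CD45 gene, lay at 0 to 0.209 CPM (estimated counts scaled to library size with TMM factors) in the cultures and at 43.3 to 186 CPM in the tumors, and the summed level of 5 endothelial markers at 0.120 to 0.594 and 58.7 to 195 CPM. Markers that define epithelium were scarce in both lines: Epcam had no count in any of the 6 cultures, Krt18 reached 15.7 to 16.1 CPM in CT-26 culture, and in Colon 26 culture 3 of 4 epithelial markers had at most 3 counts in every library and Krt8 at most 4.

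Promoters are shown for 6 members that carry the main patterns. Itgam, Itgax and Itga4 were scarce in culture and present in tumors, Itgb7 is a leukocyte integrin gene found at a high level in culture, and Itga3 and Itgb8 were higher in Colon 26 than in CT-26 under all 4 conditions. The sequences, from RefSeq on GRCm38.p6, run 5′ to 3′ on the strand of the gene from 250 bases before to 50 bases after the annotated start, and 23 of the 36 members matched an entry. Capitals mark matches on either strand to the PU box GAGGAA (reverse strand TTCCTC), bound by the myeloid factor PU.1 and its relatives, and to the GC box GGGCGG (reverse strand CCGCCC), bound by Sp factors; matches of the 2 motifs can share 1 base.
Itgam (chr7:128062390-128062689, plus strand): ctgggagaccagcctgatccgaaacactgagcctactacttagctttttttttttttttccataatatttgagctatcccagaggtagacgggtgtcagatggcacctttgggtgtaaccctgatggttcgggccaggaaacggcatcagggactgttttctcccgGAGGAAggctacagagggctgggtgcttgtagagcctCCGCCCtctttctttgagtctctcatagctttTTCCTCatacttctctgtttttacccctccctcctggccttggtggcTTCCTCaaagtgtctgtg
Itgax (chr7:128129300-128129599, plus strand): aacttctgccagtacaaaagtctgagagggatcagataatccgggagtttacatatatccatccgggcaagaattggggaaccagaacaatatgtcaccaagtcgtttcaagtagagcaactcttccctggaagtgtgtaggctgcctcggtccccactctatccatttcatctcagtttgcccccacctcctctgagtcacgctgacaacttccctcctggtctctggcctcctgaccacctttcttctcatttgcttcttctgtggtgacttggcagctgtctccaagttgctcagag
Itga4 (chr2:79255176-79255475, plus strand): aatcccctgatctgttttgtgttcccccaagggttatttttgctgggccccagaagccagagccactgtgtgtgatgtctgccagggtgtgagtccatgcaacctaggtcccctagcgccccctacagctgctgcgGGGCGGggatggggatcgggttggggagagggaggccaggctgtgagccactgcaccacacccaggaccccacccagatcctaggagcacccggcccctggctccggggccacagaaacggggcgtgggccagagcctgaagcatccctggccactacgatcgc
Itgb7 (chr15:102231886-102232185, minus strand): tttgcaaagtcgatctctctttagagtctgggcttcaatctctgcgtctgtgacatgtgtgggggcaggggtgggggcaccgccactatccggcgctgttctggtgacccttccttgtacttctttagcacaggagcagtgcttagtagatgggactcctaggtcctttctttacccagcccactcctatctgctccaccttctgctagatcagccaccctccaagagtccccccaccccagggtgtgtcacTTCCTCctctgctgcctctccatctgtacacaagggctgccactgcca
Itga3 (chr11:95076665-95076964, minus strand): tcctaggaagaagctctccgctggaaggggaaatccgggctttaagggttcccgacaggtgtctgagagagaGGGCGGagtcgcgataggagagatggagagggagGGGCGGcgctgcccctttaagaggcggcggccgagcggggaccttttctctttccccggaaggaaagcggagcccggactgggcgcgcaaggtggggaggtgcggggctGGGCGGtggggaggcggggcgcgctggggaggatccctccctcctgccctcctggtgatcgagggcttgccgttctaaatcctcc
Itgb8 (chr12:119238227-119238526, minus strand): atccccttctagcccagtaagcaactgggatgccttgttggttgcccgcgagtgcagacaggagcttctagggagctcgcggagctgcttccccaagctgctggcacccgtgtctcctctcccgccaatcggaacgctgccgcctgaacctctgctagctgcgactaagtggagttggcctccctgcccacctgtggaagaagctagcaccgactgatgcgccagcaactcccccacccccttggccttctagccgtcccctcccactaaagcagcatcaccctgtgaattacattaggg
The Itgam promoter held 3 PU box matches and 1 GC box match, that of Itgb7 held 1 PU box match, and those of Itgax and Itga4 held no PU box match, although these 4 genes belong to leukocyte integrins. The Itga3 promoter held 3 GC box matches and that of Itgb8 none. Over the 32851 promoters of the table, 28.3% held the PU box and 35.7% the GC box, against 12 and 11 of the 23 members. A gene can have several starts among the former, whereas each member was given only its outermost start, so the sets are not alike. A match describes letters and is no evidence of binding.

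Per length, as FPKM (fragments scaled to transcript length and library size), Itgb1 had the highest mean level of the 36 genes in all 8 groups. Its product is the shared beta 1 chain, the partner of most alpha chains that bind matrix. Itgb1 lay at 233 to 239 FPKM in CT-26 culture and 179 to 184 FPKM in Colon 26 culture, and its group means in tumors ran from 186 to 223 FPKM. It was not called in any comparison, and its log2 fold change between the models was −0.39 ± 0.028 (SE) in culture and −0.15, −0.28 and −0.21 in tumors of 100, 400 and 800 mm3. In culture the next gene by mean FPKM was Itgb7 in both lines, and in tumors it was Itgb5 or Lamb1.

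**Figure D1:**
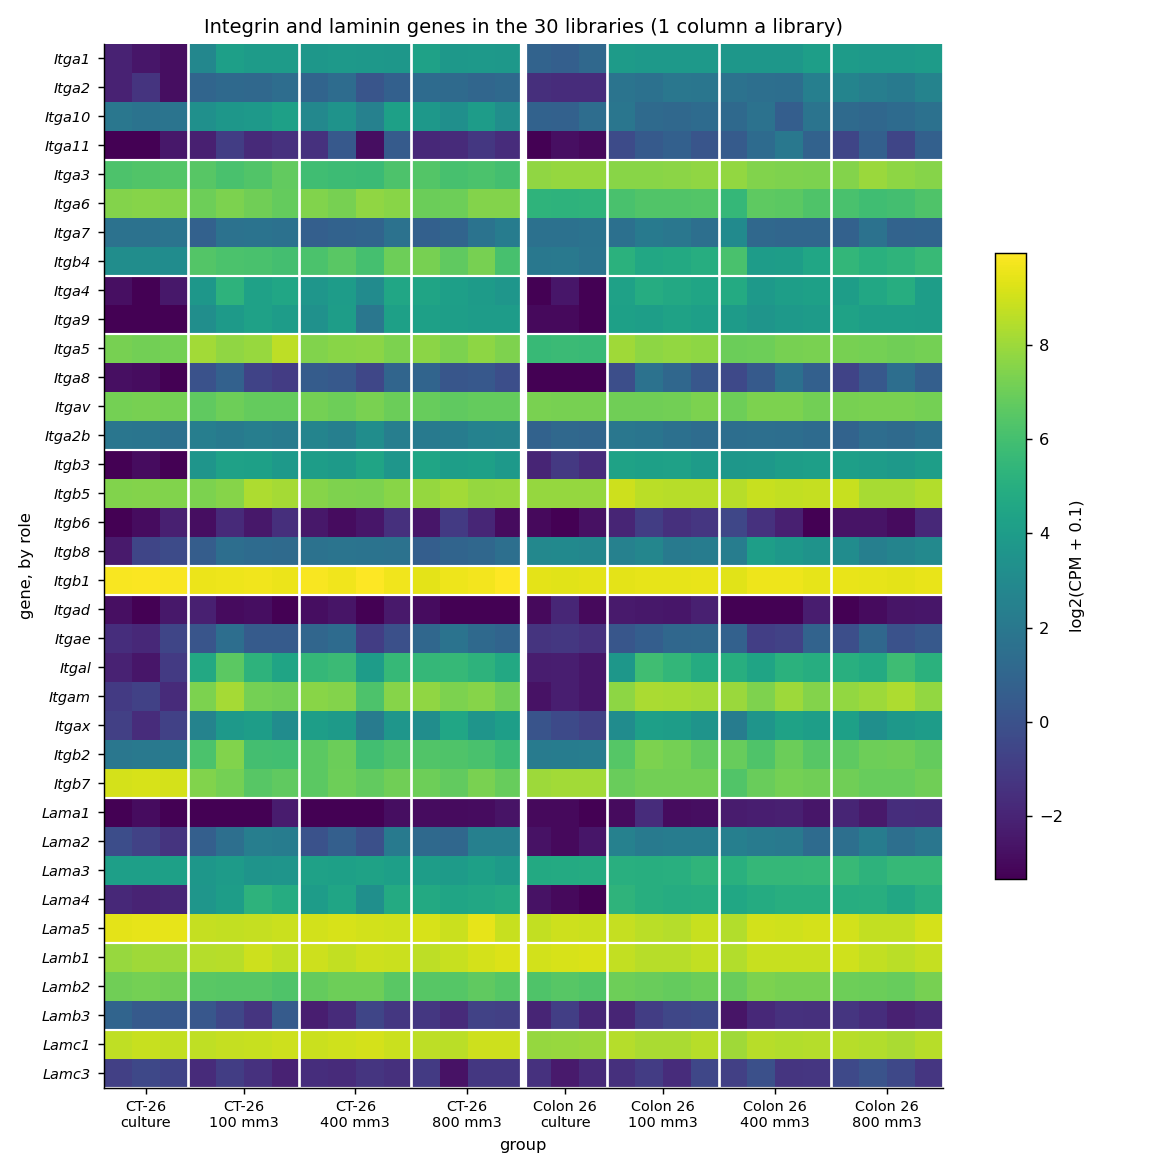
Level of the 36 genes (rows, grouped by role) in the 30 libraries (columns, grouped by model and condition), as log2(CPM + 0.1). Itgb1, Lama5, Lamb1 and Lamc1 were high in all libraries, whereas Itga4, Itga9, Itgal, Itgam and Lama4 were near the bottom of the scale in the 6 cultures and well above it in the 24 tumors.

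To compare the models, Colon 26 was set over CT-26 in culture and at each tumor size with the quasi-likelihood test of edgeR across all genes. A gene was called at an adjusted p of at most 0.1 with a log2 fold change of at least 1 in size. In culture 4 members were called higher in Colon 26 and 5 lower, of 22 tested, against 10.6% and 12.3% of all genes tested. In 100 mm3 tumors 4 were higher and 2 lower of 32 (all genes 6.17% and 7.06%), in 400 mm3 tumors 5 and 4 of 31 (6.48% and 7.79%), and in 800 mm3 tumors 6 and 4 of 32 (6.5% and 7.62%). The median log2 fold change of the members tested was −0.46 in culture, where that of all genes was 0.013, and 0.23, 0.13 and −0.016 in the tumors, where all genes had medians of −0.0022, 0.028 and −0.0057. Of the 15 members called at least once, Itga3 and Itgb8 were higher and Itgb4 lower in Colon 26 in all 4 comparisons.

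**Figure D2:**
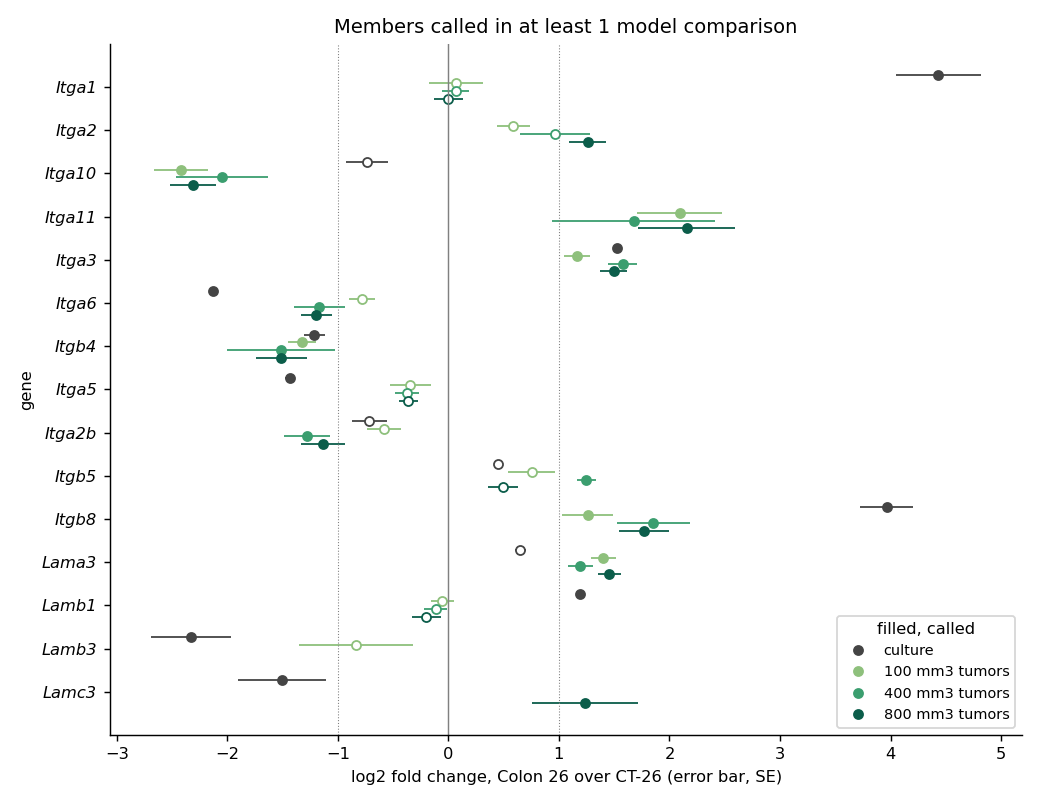
Log2 fold change of Colon 26 over CT-26 (x axis, error bars SE) for the 15 members called in at least 1 of 4 comparisons, in culture (grey) and in tumors of 3 sizes (greens); filled points were called. Itga3 and Itgb8 lie right of 1 and Itgb4 left of −1 in all 4, and Itga1, Itga5 and Lamb1 were called in culture and at no tumor size, where Itga5 stayed at −0.34 to −0.38.

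Among the laminin-binding integrin chains, Colon 26 had more Itga3 and less Itga6 and Itgb4 than CT-26. Itga3 (chr11:95044474-95076801, minus strand, GRCm38) encodes the alpha 3 chain, which with beta 1 binds laminins that hold alpha 3 or alpha 5 chains. In culture it lay at 76.4, 82.1 and 83.5 CPM in CT-26 and at 216, 227 and 228 CPM in Colon 26. In tumors of 100 mm3 the CT-26 values were 91.6, 70.9, 81.9 and 108 CPM and the Colon 26 values 195, 191, 198 and 211 CPM. No CT-26 library of any condition reached the lowest Colon 26 library, 162 CPM in a 400 mm3 tumor. The log2 fold change was 1.52 ± 0.037 in culture (edgeR, adjusted p = 2.2e-15), 1.17 ± 0.12 at 100 mm3 (adjusted p = 6.7e-05), 1.58 ± 0.13 at 400 mm3 (adjusted p = 3.9e-05) and 1.49 ± 0.12 at 800 mm3 (adjusted p = 6.7e-06).

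Itga6 (chr2:71745616-71858416, plus strand), whose alpha 6 chain is the partner of both beta 1 and beta 4, went the other way. It lay at 176, 186 and 177 CPM in CT-26 culture and at 40.1, 38.7 and 39.9 CPM in Colon 26 culture, a log2 fold change of −2.13 ± 0.032 (edgeR, adjusted p = 8.4e-18). In 800 mm3 tumors the CT-26 libraries had 123, 131, 179 and 182 CPM and the Colon 26 libraries 69.6, 59.0, 63.5 and 77.5 CPM, a log2 fold change of −1.19 ± 0.14 (adjusted p = 7.3e-05). The models did not overlap in culture or at 800 mm3, nor at 400 mm3, where the log2 fold change of −1.17 ± 0.23 (adjusted p = 0.0034) became −0.97 without Colon 26 replicate a (45.7 CPM) and then lost the call. At 100 mm3 the log2 fold change was −0.78 ± 0.11 (adjusted p = 0.00052), under the minimum size for a call. The ratio of Itga6 to Itga3, both per length, was 2.40 to 2.60 in CT-26 culture and 0.192 to 0.209 in Colon 26 culture, and in tumors it was 1.16 to 4.55 in CT-26 and 0.233 to 0.672 in Colon 26. Thus Itga6 was the more abundant of the pair in all 15 CT-26 libraries and the less abundant in all 15 Colon 26 libraries.

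Itgb4 (chr11:115974709-116008412, plus strand) encodes the beta 4 chain, which pairs with alpha 6 and joins it to plectin in hemidesmosomes. It was low in culture, with 8.98, 9.02 and 8.81 CPM in CT-26 and 3.82, 3.97 and 3.37 CPM in Colon 26 (log2 fold change −1.21 ± 0.097, edgeR adjusted p = 7.4e-09). Tumors of 100 mm3 had more of it, 85, 73.2, 70.3 and 63.7 CPM in CT-26 and 35.3, 24.6, 26.8 and 30.8 CPM in Colon 26. The rise over culture was 3.04 ± 0.10 on the log2 scale in CT-26 and 2.98 ± 0.14 in Colon 26 (edgeR, adjusted p = 4.4e-07 and 1.7e-07). Summed endothelial markers, at most 0.594 CPM in culture, were 58.7, 80.2, 195 and 153 CPM in these CT-26 tumors. In these Colon 26 tumors they were 143, 110.5, 115 and 105 CPM, both in the library order above. Markers of leukocytes, macrophages and fibroblasts also rose, and the part of any of these cells in the Itgb4 rise was not tested. The models stood apart at 100 mm3 (−1.32 ± 0.13, adjusted p = 4.7e-05) and at 800 mm3 (−1.51 ± 0.23, adjusted p = 0.00035). At 400 mm3 the Colon 26 libraries had 70.4, 15.8, 16.8 and 22.7 CPM, and replicate a overlapped the CT-26 range of 65.1 to 128 CPM. The log2 fold change there was −1.51 ± 0.49 (adjusted p = 0.032), and −2.28 without that library. The same library had the highest summed skeletal muscle markers of the series, 2423 CPM against 5.38 CPM in the lowest of its group.

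Itga7, the alpha chain of the laminin receptor of muscle, was not called between the models. It lay at 3.07 to 3.34 CPM in CT-26 culture and 3.00 to 3.20 CPM in Colon 26 culture, and at 1.5 to 4.67 CPM in all tumors but the same 400 mm3 library, which had 7.98 CPM.

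**Figure D3:**
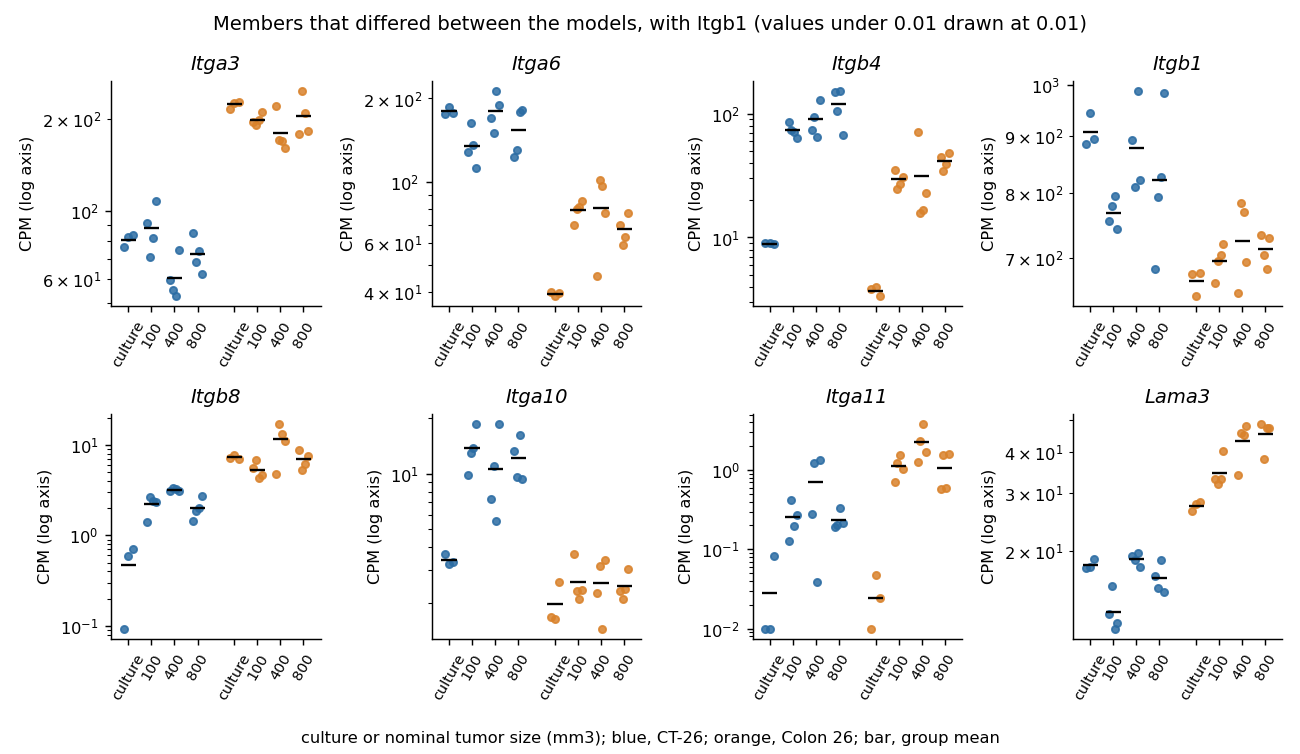
Level of 8 members (CPM, log axes) in each library by condition, with CT-26 in blue, Colon 26 in orange and the group mean as a bar; values under 0.01 are drawn at 0.01. Itga3, Itgb8 and Lama3 were higher in all Colon 26 libraries than in any CT-26 library, Itga6 was lower in all of them, and Itgb1 was not called.

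Chains that bind the RGD motif of fibronectin, vitronectin and latent TGF-beta differed mainly in Itgb8 and, in culture, Itga5. Itgb8 (chr12:119158022-119238802, minus strand) encodes beta 8, which pairs with alpha V and can release active TGF-beta from its latent form. Its level was 0.0931, 0.594 and 0.71 CPM in CT-26 culture and 7.25, 7.70 and 6.98 CPM in Colon 26 culture (log2 fold change 3.96 ± 0.24, edgeR adjusted p = 1.7e-10). In tumors it lay at 1.39 to 3.31 CPM in CT-26 and at 4.27 to 17.2 CPM in Colon 26, with no overlap. The log2 fold change was 1.26 ± 0.23 at 100 mm3, 1.86 ± 0.33 at 400 mm3 and 1.77 ± 0.23 at 800 mm3 (edgeR, adjusted p = 0.0019, 0.002 and 0.00012). Its partner Itgav was not called in any comparison, and it lay at 143 to 157 CPM in the cultures and 105 to 163 CPM in the tumors.

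Itga5, whose alpha 5 chain makes the main fibronectin receptor with beta 1, was at 148, 140 and 144 CPM in CT-26 culture and 48.9, 53.4 and 51.2 CPM in Colon 26 culture (−1.44 ± 0.040, edgeR adjusted p = 1.1e-14). In tumors the difference was −0.34, −0.38 and −0.36 and was not called, although the models did not overlap at 400 mm3 (158 to 201 against 126 to 157 CPM) or at 800 mm3 (162 to 206 against 135 to 148 CPM). Itgb5, the beta 5 chain of a vitronectin receptor, was called higher in Colon 26 at 400 mm3, with 364 to 453 CPM against 159 to 191 CPM (1.25 ± 0.088, edgeR adjusted p = 1.8e-05). Its log2 fold changes of 0.45 in culture, 0.75 at 100 mm3 and 0.49 at 800 mm3 had adjusted p values of 2.7e-10, 0.016 and 0.011 but were under the minimum size. Itga2b, the alpha chain of the platelet fibrinogen receptor, was lower in Colon 26 tumors of 400 mm3 (2.35 to 2.80 against 5.09 to 8.90 CPM, −1.28 ± 0.21, adjusted p = 0.0011) and 800 mm3 (1.76 to 2.88 against 4.2 to 5.98 CPM, −1.13 ± 0.19, adjusted p = 0.00075). Summed platelet markers at these sizes overlapped, at 4.85 to 33.8 CPM in Colon 26 and 4.66 to 29.8 CPM in CT-26. Of these 4 markers, 2 in Colon 26 and 1 in CT-26 had at most 3 counts in every library of each size. The part of platelets in the Itga2b difference was not tested. Itga2b itself was at 3.05 to 3.58 CPM in CT-26 culture and 1.73 to 2.17 CPM in Colon 26 culture. Itgb6, the beta 6 chain of epithelia, had at most 0.606 CPM in any library. Itga8 and Itgb3 were not called between the models in tumors and did not pass the filter in culture. There Itgb3 had at most 1 count in each CT-26 library and 6 to 15 counts in the Colon 26 libraries.

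The collagen-binding alpha chains, which all pair with beta 1, divided between the models. Itga10 (chr3:96645584-96664519, plus strand), known from cartilage, was lower in Colon 26 tumors of all sizes. At 100 mm3 the CT-26 tumors had 9.88, 12.9, 13.9 and 18.7 CPM and the Colon 26 tumors 3.65, 2.31, 2.10 and 2.35 CPM (−2.42 ± 0.24, edgeR adjusted p = 6.3e-05). The log2 fold change was −2.05 ± 0.41 at 400 mm3 and −2.31 ± 0.21 at 800 mm3 (adjusted p = 0.0037 and 1.2e-05), and over the 24 tumors the lowest CT-26 value of 5.53 CPM was above the highest Colon 26 value of 3.65 CPM. In culture it was at 3.68, 3.23 and 3.34 CPM against 1.68, 1.64 and 2.59 CPM (−0.74 ± 0.19, not called).

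Itga11, a collagen receptor chain of fibroblasts, was higher in Colon 26 tumors but scarce. In 100 mm3 tumors it had 0.127 to 0.425 CPM in CT-26 and 0.711 to 1.57 CPM in Colon 26 (2.09 ± 0.38, edgeR adjusted p = 0.0019), and at 800 mm3 0.189 to 0.337 and 0.575 to 1.59 CPM (2.16 ± 0.44, adjusted p = 0.0022). At 400 mm3 the models overlapped (1.68 ± 0.73, adjusted p = 0.095), and leaving out CT-26 replicate a or c or Colon 26 replicate b, c or d ended that call (log2 fold changes of 1.28 to 1.80). Summed levels of 5 fibroblast markers at 100 mm3 were 759 to 1144 CPM in CT-26 and 1495 to 1773 CPM in Colon 26, and the cultures differed in the same direction, at 110.5 to 115 CPM in CT-26 and 363 to 387 CPM in Colon 26. The part of these markers in the Itga11 difference was not tested. Itga2, a collagen receptor chain of epithelium and platelets, was called at 800 mm3, with 1.96 to 2.42 CPM in CT-26 and 4.27 to 6.19 CPM in Colon 26 (1.26 ± 0.17, adjusted p = 0.00014). Itga1 differed in culture. It had at most 3 counts in each CT-26 culture and 1.49 to 2.17 CPM in Colon 26 culture, at least 14.4-fold higher when 3 counts per library are put in for CT-26, whereas in tumors its log2 fold changes of 0.069, 0.065 and 0.00038 were not called.

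Both lines made the chains of laminin-511, Lama5, Lamb1 and Lamc1, in culture. Lama5, the alpha 5 chain of most adult epithelial basement membranes, was 96.5 to 96.7% of the summed FPKM of the 5 laminin alpha genes in CT-26 culture, 93.0% in Colon 26 culture and 75.9 to 91.9% in tumors. It was at 687, 693 and 701 CPM in CT-26 culture and 428 to 483 CPM in Colon 26 culture (−0.54 ± 0.039), and it was not called in any comparison. Lamb1 was at 238, 263 and 258 CPM in CT-26 culture and 535, 558 and 577 CPM in Colon 26 culture (1.19 ± 0.037, edgeR adjusted p = 5.3e-14). In tumors the Lamb1 ranges of the models overlapped, at 359 to 604 CPM and 344 to 499 CPM, with log2 fold changes of −0.053, −0.12 and −0.20 that were not called. Lamb2, the beta 2 chain, made Lamb1 63.0 to 65.5% of the summed beta FPKM in CT-26 culture against 85.8 to 87.2% in Colon 26 culture. Lamc1 had log2 fold changes of −0.81 in culture and −0.44, −0.59 and −0.34 in tumors, with adjusted p values of 2.9e-12, 0.0016, 0.0026 and 0.017, all under the minimum size for a call.

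Lama3, the alpha 3 chain of the laminin under stratified epithelia, was higher in all 15 Colon 26 libraries than in any CT-26 library (26.4 to 48.9 against 11.6 to 19.7 CPM). In 100 mm3 tumors it had 12.8, 15.6, 11.6 and 12.0 CPM in CT-26 and 33.2, 32.0, 33.2 and 40.2 CPM in Colon 26 (1.40 ± 0.12, edgeR adjusted p = 2.2e-05). The log2 fold change was 1.19 ± 0.11 at 400 mm3 and 1.46 ± 0.10 at 800 mm3 (adjusted p = 6e-05 and 2.6e-06), and 0.65 ± 0.052 in culture, under the minimum size. Lamb3, the beta chain that assembles with alpha 3, had its own pattern. It was at 1.17 to 1.82 CPM in CT-26 culture and 0.162 to 0.457 CPM in Colon 26 culture (−2.33 ± 0.36, edgeR adjusted p = 2.1e-05) and at most 1.3 CPM in any tumor. Lamc3 stayed under 1 CPM throughout and changed direction, with −1.51 ± 0.39 in culture (adjusted p = 0.0024) and 1.23 ± 0.48 at 800 mm3 (adjusted p = 0.051); the latter call was lost without CT-26 replicate b (0.87) or Colon 26 replicate b (1.0).

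**Figure D4:**
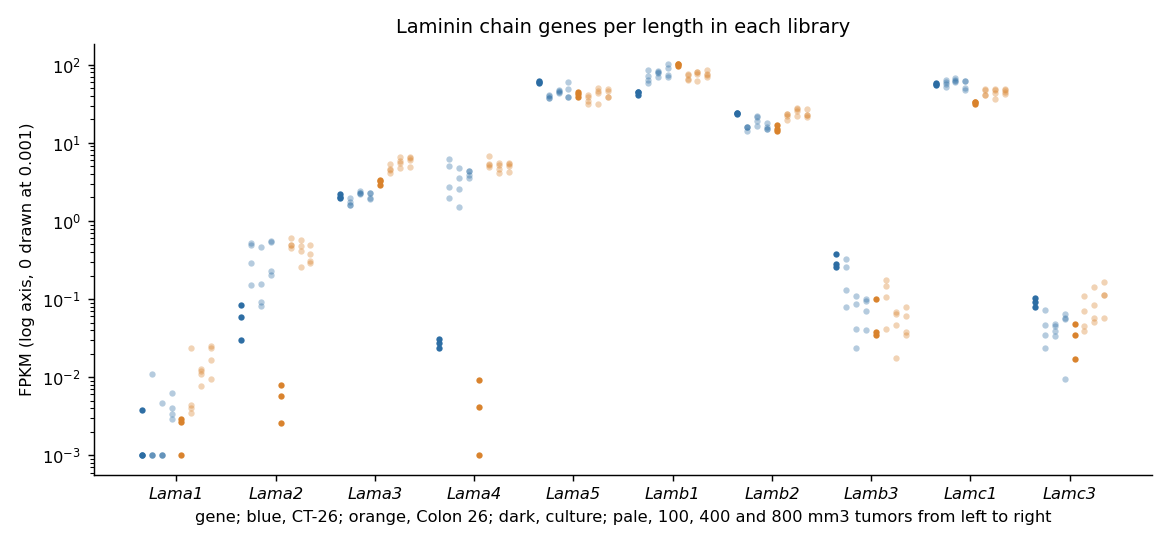
FPKM (log axis, 0 drawn at 0.001) of the 10 laminin chain genes in each library, CT-26 in blue and Colon 26 in orange, cultures dark and tumors of 100, 400 and 800 mm3 pale from left to right. Lama5, Lamb1, Lamb2 and Lamc1 were high in all groups, Lama4 and Lama2 rose from culture to tumor, and Lama3 was higher in Colon 26.

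Small tumors were then set over the culture of the same model. In CT-26, 16 members were called higher and 2 lower of 32 tested, where 22.2% and 10.1% of all genes were called. In Colon 26, 17 were higher and 0 lower of 32, where 20.8% and 6.12% of all genes were called. DESeq2 called 18 members in each model, and with library size in place of TMM factors 1 member was called lower in Colon 26. The median log2 fold change of the members was 1.5 in CT-26 and 1.56 in Colon 26, against 0.060 and 0.052 for all genes. Setting members at the count floor in culture to their lower bound could not move these medians, as each bound lay above them. In both models 14 members were called higher. The 2 members called lower in CT-26 were Itgb7 and Lamc3, the latter at −1.03 ± 0.40 (adjusted p = 0.046), a call lost with DESeq2 (−1.04) and without 100 mm3 replicate a (−0.94), 100 mm3 replicate d (−0.82) or culture replicate b (−0.93). Both comparisons add host cells to carcinoma cells. At the count floor of at most 3 counts in each library were 9 members in CT-26 culture and 8 in Colon 26 culture. Of the members tested, 5 in CT-26 and 6 in Colon 26 were at this floor in culture. They passed the filter only through their tumors, so that a higher call was the only call open to them. All of them are among the members called higher. The same held for members just above this floor, such as Itgal (3 to 5 counts) and Itgam (2 to 5 counts) in the Colon 26 cultures. Only 22 of the 36 members passed the filter when the cultures were compared with each other. The counts called higher and the medians were thus in part fixed in advance and are no test.

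The 5 leukocyte integrin genes tested other than Itgb7 rose in both models. Itgam, the alpha M chain of complement receptor 3 on myeloid cells, had 0.372, 0.483 and 0.209 CPM in CT-26 culture and 159, 281, 146 and 134 CPM in CT-26 tumors of 100 mm3 (8.97 ± 0.47, edgeR adjusted p = 1.8e-06). In Colon 26 it had 0.0541, 0.120 and 0.0732 CPM in culture and 205, 305, 300.2 and 272 CPM in tumors (11.60 ± 0.27, adjusted p = 3.2e-09). These Colon 26 cultures held only 2 to 5 counts of it, so the size of that rise is approximate. Itgb2, the beta 2 chain shared by the leukocyte alpha chains, had 3.68 to 4.38 and 4.52 to 4.83 CPM in the cultures and rose by 4.53 ± 0.48 and 4.76 ± 0.24 on the log2 scale. Itgal (alpha L of LFA-1) rose by 7.88 and 8.43, Itgax (alpha X, the dendritic cell marker CD11c) by 4.84 and 4.24, and Itgae (alpha E of resident T cells) by 2.25 and 2.45. The Itgal values are approximate too, as they rest on 2 to 9 counts in the CT-26 cultures and 3 to 5 in the Colon 26 cultures. Itgad had at most 0.168 CPM in any library. None of these genes was called between the models in tumors of any size. At 800 mm3, however, 2 of them were higher in Colon 26 without overlap. Itgam had 134 to 216 CPM in CT-26 and 221 to 314 CPM in Colon 26, and Itgb2 had 52.4 to 81.4 and 101 to 132 CPM. Itgal, Itgax and Itgae overlapped at that size.

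Itga4 and Itga9, related alpha chains that bind VCAM-1, tenascin and fibronectin, were at the floor in both cultures. Itga4 had 12.9, 38.1, 19.0 and 23.3 CPM in CT-26 tumors and 19.2, 29.6, 25.4 and 21.8 CPM in Colon 26 tumors, at least 186-fold and 318-fold higher than culture with 3 counts put in for each culture library. Itga9, which had no count in the 3 CT-26 cultures, was at 9.20 to 19.2 CPM in CT-26 and 17.0 to 19.6 CPM in Colon 26 tumors, at least 119-fold and 242-fold higher. Itgb3, the beta 3 chain of the platelet and endothelial receptors, was at the floor in CT-26 culture and at 0.162 to 0.361 CPM in Colon 26 culture, and had 12.2 to 19.3 and 15.6 to 20 CPM in the 100 mm3 tumors. This was a rise of at least 127-fold in CT-26 and of 6.17 ± 0.20 on the log2 scale in Colon 26 (edgeR, adjusted p = 1.9e-08). Lama4, the alpha 4 chain of endothelial basement membrane, rose by 7.15 ± 0.58 in CT-26 (to 12.5 to 37.7 CPM) and at least 437-fold in Colon 26 (to 29.8 to 39.5 CPM). Its CT-26 value rests on 4 counts in each culture and is approximate. Of the collagen-binding chains, Itga1 rose at least 110-fold in CT-26 and by 3.01 ± 0.13 in Colon 26, Itga2 by 3.74 ± 0.44 and 3.88 ± 0.19, Itga10 in CT-26 alone among the calls (2.03 ± 0.22), and Itga11 at least 15.1-fold in Colon 26. Lama2, the alpha 2 chain of muscle and nerve, rose by 2.71 ± 0.51 and at least 63.7-fold, and Itga8, a chain of mesenchymal cells, at least 7.02-fold and 23.2-fold. In the same tumors endothelial markers summed to 58.7 to 195 CPM, fibroblast markers to 759 to 1773 CPM and macrophage markers to 500 to 844 CPM. Skeletal muscle markers summed to 2.83 to 464 CPM in CT-26 and 151 to 1238 CPM in Colon 26. The cultures were not free of these markers, with fibroblast markers at 110.5 to 387 CPM in both lines, macrophage markers at 60.2 to 67.1 CPM in CT-26 and 3.73 to 4.72 CPM in Colon 26, and skeletal muscle markers at 8.26 to 8.57 and 1.56 to 1.83 CPM. How much of each member host cells carried was not tested.

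**Figure D5:**
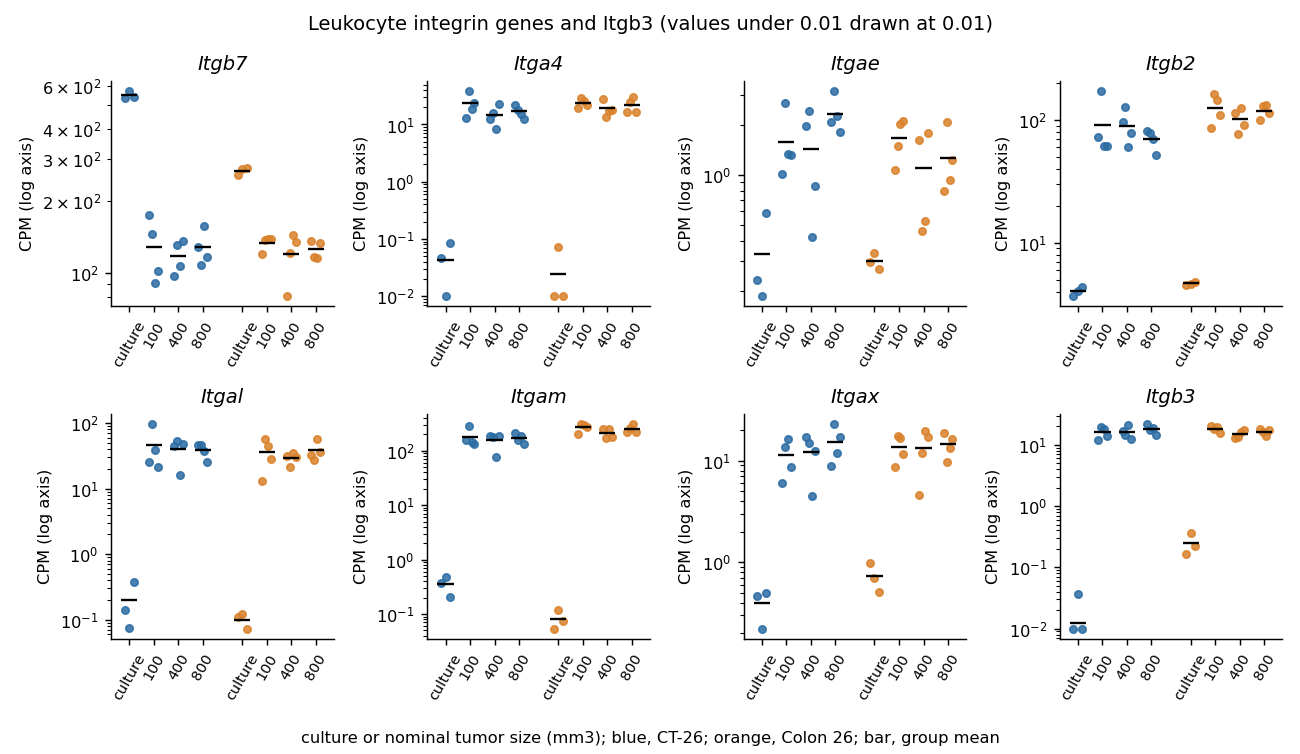
CPM (log axes) of 6 leukocyte integrin genes, Itga4 and Itgb3 in each library by condition, CT-26 in blue, Colon 26 in orange, the group mean as a bar and values under 0.01 drawn at 0.01. The 7 genes other than Itgb7 were called higher in 100 mm3 tumors than in culture in both models, and Itgb7 was highest in the cultures and lay at 80.5 to 175 CPM in the tumors.

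Itgb7 was the exception. Its beta 7 chain pairs with alpha 4 or alpha E and directs lymphocytes to the gut and its epithelium. It was at 537, 572 and 539 CPM in CT-26 culture and 258, 272 and 273 CPM in Colon 26 culture, or 201 to 206 and 98.4 to 107 FPKM, so that it was the integrin gene nearest to Itgb1 per length. Both of its known partners were scarce in the same cultures, Itga4 with at most 0.0835 CPM and Itgae with at most 0.584 CPM, and so was Ptprc. In tumors of 100 mm3 it had 175, 145, 91.1 and 103 CPM in CT-26 and 121, 137, 139 and 140 CPM in Colon 26, and the models overlapped at each size. The log2 change from culture was −2.09 ± 0.21 in CT-26 (edgeR, adjusted p = 4.3e-05) and −0.99 ± 0.053 in Colon 26 (adjusted p = 3.4e-07), the latter just under the minimum size for a call. In culture the models differed by −0.99 ± 0.032 (adjusted p = 9.9e-14), also just under it. The annotation lists no exon of another gene over Itgb7 (chr15:102215995-102231944, minus strand, GRCm38).

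Whether the difference between models itself changed from culture to 100 mm3 tumors was tested as an interaction. It was called for 13 members, 8 higher and 5 lower, of 33 tested, where 8.29% and 9.31% of all genes were called. Of those with counts in all 4 groups, Itga6 (1.36 ± 0.15, edgeR adjusted p = 6.9e-06) and Itga5 (1.10 ± 0.23, adjusted p = 0.0013) rose more in Colon 26, where their culture level was lower. The Itga6 change from culture was 1.0 ± 0.062 in Colon 26 (adjusted p = 8.3e-07) and −0.40 ± 0.12 in CT-26. The Colon 26 value lay at the minimum size, and its call was lost under 7 of 15 other settings (0.91 to 1.0). These were the fits without 100 mm3 replicate c or d or culture replicate b, with library size only, without the filter, with all 30 libraries, and by limma. Itgb8 (−2.71 ± 0.49, adjusted p = 0.00048) rose in CT-26 by 2.22 ± 0.51 and had a change of −0.45 ± 0.15 in Colon 26. Itga10 (−1.67 ± 0.35, adjusted p = 0.0014) rose in CT-26 by 2.03 ± 0.22 and had a change of 0.41 ± 0.25 in Colon 26. Lamb1 (−1.24 ± 0.13) and Lamb2 (1.13 ± 0.10) moved in opposite directions, with adjusted p values of 5.7e-06 and 1.3e-06, and the Lamb1 share of the beta FPKM in 100 mm3 tumors was 78.7 to 84.1% in CT-26 and 74.9 to 76.5% in Colon 26. Itgb7 (1.05 ± 0.23, adjusted p = 0.0022), Itgam (2.58 ± 1.07, adjusted p = 0.068) and Lamc3 (1.99 ± 0.64, adjusted p = 0.021) were also called. The Itgb7 call was lost without CT-26 100 mm3 replicate c (0.91) or d (0.96), and that of Itgam without CT-26 culture replicate a (2.55) or b (2.26). The Itgam value also rests on Colon 26 cultures of 2 to 5 counts, near the count floor. The values of Itga1 (−4.36), Itgb3 (−3.68), Lama2 (3.71) and Lama4 (2.94) rest on a culture at the count floor and depend on the prior count of the fit, and Lama4 was not called under 12 of 22 other settings.

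Growth of the tumors from 100 to 800 mm3 called no member in either model with edgeR. In CT-26, 0 of 31 members were called, 4 had an unadjusted p under 0.05 and DESeq2 called 0, and 0% of all genes were called in either direction. In Colon 26, 0 of 32 members were called, 7 had an unadjusted p under 0.05 and DESeq2 called 0, where 0.169% of all genes were higher and 1.16% lower. Without the minimum fold change, 4 members passed in Colon 26. Itga5 had a log2 change of −0.65 ± 0.079 (edgeR, adjusted p = 0.0067), from 203 to 261 CPM to 135 to 148 CPM, and Itga2 (0.65), Itgb4 (0.49) and Lama3 (0.38) had positive changes, with adjusted p values of 0.053, 0.081 and 0.069. In CT-26 the Itga5 value was −0.63 ± 0.19 (adjusted p = 0.42). The model difference at 800 mm3 minus that at 100 mm3 called 0 of 33 members with edgeR (0.0123% and 0.0185% of all genes), 3 had an unadjusted p under 0.05, and DESeq2 called 0.

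Genes that work with these receptors and matrix chains were taken from 4 fixed lists. Their counts stand beside the shares of all genes called given above (10.6% higher and 12.3% lower in culture, 6.17 to 6.5% and 7.06 to 7.79% in tumors). The lists, like the members, were chosen with earlier results of these data known, so these shares give scale and are no test. Of 25 genes of integrin activation and focal adhesion, 1 was called higher in Colon 26 culture and 3 lower of 24 tested, and 1 higher at each tumor size. Ptk2b, the kinase Pyk2, was that gene, at 38.5 against 2.36 CPM in culture (log2 fold change 4.07) and 1.40, 1.51 and 1.60 in tumors, and Parvg (−1.96) and Fermt3 (−1.65), parvin gamma and the blood cell kindlin, were the next in culture. Of 9 basement membrane partners and other laminin receptors, 1 of 7 was called higher in culture and 1, 1 and 2 of 9 in tumors. Nid1, the nidogen that links laminin to collagen IV, was among these each time (2.73 in culture and 1.07, 1.26 and 1.41 in tumors), and at 800 mm3 Hspg2, perlecan, was the other (893 against 409.8 CPM). Of 13 other integrin ligands, 3 were called higher and 1 lower in culture of 8 tested, 3 and 1 of 12 at 100 and at 400 mm3, and 3 and 0 of 12 at 800 mm3. Fbn1, fibrillin 1, was higher each time (4.03, 1.28, 1.48 and 1.67), Thbs1 was higher in culture (3.15), and Tnc, tenascin C, was lower in culture (−3.04) but higher in tumors of 100 mm3 (1.74) and 400 mm3 (1.60). Vcam1, a ligand of integrin alpha 4 beta 1, was lower in Colon 26 tumors of 100 mm3 (−1.24) and 400 mm3 (−1.41), and Npnt, a ligand of alpha 8 beta 1, was higher at 800 mm3 (1.11). Of the 4 hemidesmosome partners, Plec (−1.58) and Cd151 (−1.29) were called lower in Colon 26 culture, as Itga6 and Itgb4 were, 0 of 4 were called at 100 and 400 mm3, and Col17a1 (−1.19) was called lower at 800 mm3. From culture to 100 mm3 tumors the 4 lists, in this order, had 4 higher and 1 lower of 24, 5 and 0 of 9, 8 and 0 of 12, and 0 and 1 of 4 in CT-26, and 5 and 1 of 24, 3 and 0 of 9, 6 and 1 of 11, and 1 and 0 of 4 in Colon 26, where 22.2% of all genes were higher and 10.1% lower in CT-26 and 20.8% and 6.12% in Colon 26.

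Several members share exons with other annotated genes, and whether the counting used strand is not stated. Gm49368 covers 3450 exon bases of Itgam on the same strand, Gm42957 covers 1739 of Itga10 and Gm49395 covers 685 of Itga1, and Cerkl and B230344G16Rik overlap Itga4 and Itgb4 on the other strand by 1124 and 537 bases. Reads of such stretches cannot be assigned to 1 gene from the table alone.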

How the data were processed

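RNA of 6 cultures and 24 tumors was sequenced, and the authors deposited estimated counts and FPKM per gene, made with Array Studio on Ensembl release 78. The aligner, genome build and strand setting are not given in the sources used here, and the processing notes name DESeq2 1.24.0. Of non-zero deposited counts 22.6% were not whole, and all were rounded. Groups came from the sample labels. The members and lists were chosen with earlier results of these data known, and all 36 members are named.

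Each comparison was fitted across all genes with edgeR 4.0.16 (filterByExpr, TMM, quasi-likelihood test, Benjamini-Hochberg adjustment) on its own groups. A call needed an adjusted p of at most 0.1 and a log2 fold change of at least 1, the thresholds of the study. CPM were scaled by TMM factors over all 30 libraries, and the deposited FPKM served to compare genes. Lower bounds put 3 counts into each library at the floor. Values after ±, and error bars given as SE, are the absolute log2 fold change divided by the square root of the F statistic of the test. They are approximate, most of all where a culture is near the count floor. Fits were tested on simulated data. Where cultures or tumors are not stated to be independent, p-values measure the spread between these libraries, and bounds cover counting error only. DESeq2 1.42.0, limma 3.58.1 on log2(FPKM + 1), RLE or no normalization factors, no filter, a joint fit, other thresholds and leaving out each library were alternatives. Annotation was GENCODE M21 on GRCm38.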

Additional observations from a re-analysis of the deposited data

Results flagged for a closer look

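Each tumor group of 4 was searched for a library whose gap to the others passed Dixon's 95% limit. Over the 33 tested members this covered 198 groups, of which chance would give about 9.9, and 18 were found. Colon 26 400 mm3 replicate a accounted for 4 of them, the most of any library. It was high for Itgb4 (70.4 CPM, others at most 22.7), Itga7 (7.98 CPM, others at most 2.16) and Itga3 (220.1 CPM, others at most 171) and low for Lamb1 (344 CPM, others at least 448), and its skeletal muscle markers summed to 2423 CPM. Colon 26 100 mm3 replicate a was high for Itga10 (3.65 CPM) and Itgb5 (490.3 CPM) and low for Itgb7 (121 CPM). CT-26 100 mm3 replicate b was high for Itgam (281 CPM) and Itgb2 (172 CPM), and its Ptprc level of 186 CPM was the highest of the series. Colon 26 800 mm3 replicate b was high for Itga7 (3.11 CPM) and low for Lama3 (38.1 CPM). The remaining libraries stood apart for 1 member each. CT-26 400 mm3 replicate c was low for Itgam (75.5 CPM, others at least 180.4), CT-26 100 mm3 replicate a was low for Itga7 (1.65 CPM), CT-26 800 mm3 replicate a was high for Itga1 (19.3 CPM) and CT-26 800 mm3 replicate b was low for Lamc3 (0.0588 CPM). Colon 26 400 mm3 replicate d was high for Itga1 (17.4 CPM), Colon 26 800 mm3 replicate a for Itga9 (20.1 CPM) and Colon 26 100 mm3 replicate d for Lama3 (40.2 CPM).

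The difference between the models changed from culture to 100 mm3 tumors for 13 members by the interaction test of edgeR. On the log2 scale the change was positive for Itga6 (1.36), Itga5 (1.10), Itgam (2.58), Itgb7 (1.05), Lama2 (3.71), Lama4 (2.94), Lamb2 (1.13) and Lamc3 (1.99). It was negative for Itga1 (−4.36), Itga10 (−1.67), Itgb3 (−3.68), Itgb8 (−2.71) and Lamb1 (−1.24). The cultures of the models were of separate library series, and the tumors hold host cells, so that these cannot be told apart from the model in this test.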

How the results depend on the processing

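Of the 82 member calls, 37 were not called under at least 1 alternative setting. Among the 1337 recomputed values of the 82 calls, 72 were not called and 1 changed direction, which was the Itgb3 interaction between culture and tumor, 0.13 by limma on log2(FPKM + 1). That scale understates changes of scarce genes. It gave 4 calls in culture (main 9), 4 at 400 mm3 (main 9), 5 at 800 mm3 (main 10) and 6 for the interaction (main 13). Without the minimum fold change the counts were 21 in culture, 15 at 100 mm3 (main 6), 15 at 400 mm3, 19 at 800 mm3, 27 from Colon 26 culture to tumor (main 17) and 4 for Colon 26 growth (main 0). Without the filter on low counts 14 members were called in culture. All other counts, those leaving out 1 library among them, stayed within 1.5 times the main count. Leaving out 1 library gave 10 to 12 calls in culture, 6 to 7, 8 to 10 and 9 to 11 at the 3 tumor sizes, 17 to 19 and 16 to 20 from culture to tumor, and 11 to 13 for the interaction. No paired analysis was possible because the labels carry no replicate numbers.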
